A study of Mus musculus with 12 samples.

Results

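The data described here are the 6 libraries from E12.5 mouse spinal cord that lacked *Isl2*, 3 from the lumbar and 3 from the brachial cord, out of 12 libraries in the series. All 6 came from *Isl2* -/- embryos (*Isl2* KO), and the lumbar libraries were compared with the brachial libraries over the 15091 genes, of 45777 gene identifiers, whose mean was 1 TPM or more across the 6. TPM is a level scaled for transcript length and for the library's total, and it was rescaled between the 6 libraries by median-of-ratios size factors. The remaining 6 libraries were 3 lumbar and 3 brachial *Isl2* +/- libraries (Het), which carry 1 null allele themselves and served as the reference. The study took the ventral cord trimmed around the Hb9::GFP signal, a reporter of motor neurons (MNs), so each library holds MNs together with the cells around them. The null allele was constitutive, so all cell types at both levels carried it. The methods name 3 animals for each genotype, while the labels do not tie a lumbar library to a brachial library of the same animal, so p-values measure the spread between these libraries. In such bulk tissue, fewer cells of a type and less RNA per cell cannot be told apart.

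The brachial cord innervates the forelimb and the lumbar cord the hindlimb. Both levels hold a lateral motor column (LMC) of limb-innervating MNs beside a median motor column (MMC) for axial muscle, and the identity of segments along the cord is set by the *Hox* genes, which lie in 4 clusters and are expressed in an order that follows their order on the chromosome. Isl2 is a LIM-homeodomain transcription factor of postmitotic MNs. The question put to these libraries was which differences between the lumbar and brachial cord stand in the *Isl2* KO.

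*Hox* clusters also hold microRNA genes, and the hairpins of 1 family, miR-196, were among the transcripts that separated the levels in the KO. Their mature sequences are shown because they carry the regulatory part of those transcripts, beside the miR-10 family, whose hairpins lie towards the opposite end of the clusters and did not pass the test. The sequences are from RefSeq (GRCm38.p6), 5′ to 3′, with the seed, bases 2 to 8, in capitals.
mmu-miR-196a-5p: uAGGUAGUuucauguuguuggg
mmu-miR-196b-5p: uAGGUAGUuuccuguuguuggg
mmu-miR-10a-5p: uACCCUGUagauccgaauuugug
mmu-miR-10b-5p: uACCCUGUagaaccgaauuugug
Counting from 1 at the 5′ end, miR-196b differed from miR-196a by A12C and miR-10b from miR-10a by U12A, so the seed is shared within each family. The mature miR-196a-5p is encoded at chr11:96265187-96265208 (+), upstream of *Hoxb9*, and at chr15:102973365-102973386 (+), between *Hoxc10* and *Hoxc9*. The miR-196b-5p copy lies at chr6:52230129-52230150 (-), between *Hoxa9* and *Hoxa10*. The miR-10a-5p copy lies at chr11:96317186-96317208 (+) and the miR-10b-5p copy at chr2:74726074-74726096 (+), within the *Hoxd4* locus. Libraries of total RNA measure the hairpin locus and not the mature miRNA.

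*Isl2* itself (chr9:55538677-55547667, + strand) was first examined in all 12 libraries on 1 common scale. It stood at 6.04, 7.28 and 4.47 TPM in the brachial KO libraries and at 7.33, 6.53 and 8.24 TPM in the lumbar KO libraries. The Het libraries ran from 8.33 to 9.72 TPM at the brachial level and from 8.43 to 10.3 TPM at the lumbar level. Every KO library was below every Het library. The value sums reads over the whole gene, so it does not test the deleted exons alone. Within the KO, *Isl2* did not pass the test between levels, with a log2 difference (lumbar minus brachial, as throughout) of 0.33 (SE 0.20, adjusted p = 0.334, limma).

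The KO libraries held 4.48 to 6.38 Gb of bases aligned to genes, as back-calculated from coverage and FPKM, with brachial KO 3 the shallowest. Small RNAs took 23.7% of TPM in brachial KO 2 and 30.9 to 38.2% in the other 5 KO libraries, and brachial KO 2 stood apart from the other brachial libraries in several gene groups described here. *Xist* was at 77.0 TPM in brachial KO 3 and 24.02 TPM in lumbar KO 2 and at or under 0.0227 TPM in the other 4 KO libraries, so the embryos' sexes were mixed within both levels.

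Across all genes, 248 of 15091 were higher in the lumbar KO cord (1.64%) and 241 were lower (1.6%) at an adjusted p under 0.05 by limma on log2(TPM + 0.1). At an unadjusted p under 0.05, 3817 genes differed, and the median log2 difference was 0.01. Among genes past the threshold, 117 were higher and 101 lower by more than 1 on the log2 scale. In all 489 of these genes the 3 lumbar values did not overlap the 3 brachial values. Such separation was seen in 2448 genes with lumbar higher (16.2%) and 2150 with lumbar lower (14.2%). The counts for gene lists given below are to be read beside these shares. The numbers of genes called over all genes rested on single libraries. They were 26 higher and 16 lower without brachial KO 2, 16 and 21 without lumbar KO 2, and 18 and 17 without lumbar KO 3, against 66 and 126 without brachial KO 3, 85 and 113 without lumbar KO 1, and 599 and 337 without brachial KO 1.

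The *Hox* genes gave the largest differences, and in opposite directions along the clusters. Of the 16 *Hox* genes of groups 9 to 13, which pattern the thoracic cord (group 9) and the levels below it, 10 passed the filter on low values, and 8 of these were higher in the lumbar KO cord and none lower, whichever library was left out. Most of these 8 were at or near 0 in the brachial libraries and passed the filter through their lumbar values. Such genes could only be called higher, so the count and its stability do not test the direction. The summed level of the 16 genes was 227, 109 and 220 TPM in the brachial and 701, 647 and 574 TPM in the lumbar KO libraries. *Hoxd10* (chr2:74684273-74695106, + strand), a determinant of lumbar LMC identity together with its paralogs, was listed at 0, 0.0253 and 0 TPM in the brachial and reached 222, 141 and 128 TPM in the lumbar KO libraries (adjusted p = 9.64e-07). *Hoxa10* (chr6:52231197-52240854, - strand) was at 1.13, 0.0398 and 0 TPM against 116, 125 and 100 TPM (adjusted p = 0.00291). *Hoxc10* (chr15:102966796-102971898, + strand) was listed at 0 in all brachial libraries and at 41.8, 26.9 and 30.4 TPM in the lumbar ones (adjusted p = 3.25e-06). The group 10 genes were thus listed at or near 0 in the brachial libraries, and no fold is given because all but 1 of the brachial values lie under the pseudocount of 0.1 TPM.

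*Hoxd9* (chr2:74697763-74700208) showed the same separation, at 0.117, 0.0556 and 0.113 TPM against 54.4, 47.1 and 37.9 TPM (adjusted p = 3.25e-06). *Hoxa11*, *Hoxc11* and *Hoxd11*, of the next group, were listed at 0 in every brachial KO library. In the lumbar KO libraries *Hoxa11* was at 15.3, 22.3 and 15.4 TPM (adjusted p = 1.16e-05), *Hoxc11* at 4.81, 6.27 and 8.12 TPM (adjusted p = 0.000284) and *Hoxd11* at 4.43, 5.12 and 6.28 TPM (adjusted p = 0.000347). The group 11 genes were therefore present at lower levels than the group 10 genes in the same lumbar tissue. *Hoxd12* was listed at 0 in the brachial libraries and at 0, 0.628 and 0.422 TPM in the lumbar ones, under the filter. *Hoxc12* and *Hoxa13* were listed at 0 in all 6.

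The group 9 genes differed among themselves. *Hoxa9* (chr6:52223097-52227370) was already present at the brachial level, at 47.3, 26.3 and 29.7 TPM, and was higher at the lumbar level, at 122, 128 and 119 TPM (log2 difference 1.88, SE 0.20, adjusted p = 0.00604). *Hoxb9* was at 146, 59.8 and 166 TPM in the brachial and 88.8, 120 and 104 TPM in the lumbar KO libraries, and *Hoxc9* at 32.0, 22.6 and 24.2 TPM against 31.7, 25.1 and 24.3 TPM. Both overlapped between levels, with log2 differences of -0.13 (adjusted p = 0.852) and 0.05 (adjusted p = 0.877), and the sign of each turned when single libraries were left out. *Hoxb9* was lowest in brachial KO 2.

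The genes of groups 4 to 8, which pattern the cervical, brachial and thoracic cord, were lower at the lumbar level where they passed the test in the HoxC and HoxA clusters, 7 genes in all. *Hoxc8* (chr15:102990539-102994275), which acts in brachial LMC pools, was at 170, 166 and 188 TPM in the brachial and 18.9, 14.9 and 16.9 TPM in the lumbar KO libraries, a log2 difference of -3.37 (SE 0.11, adjusted p = 3.49e-06). *Hoxc6*, which specifies brachial LMC neurons, was at 106, 78.6 and 86.7 TPM against 23.7, 24.2 and 22.9 TPM (log2 difference -1.92, SE 0.11, adjusted p = 0.000284). *Hoxc5* was at 34.8, 40.8 and 33.01 TPM against 13.4, 11.9 and 15.01 TPM (log2 difference -1.42, SE 0.12, adjusted p = 0.00225). Each of these 3 genes was lower in every lumbar than in every brachial library, and the difference was smaller in turn from *Hoxc8* to *Hoxc6* and *Hoxc5*, an order that was not tested.

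*Hoxc4* (log2 difference -1.03, adjusted p = 0.0083), *Hoxa5* (-1.07, adjusted p = 0.00393), *Hoxa7* (-0.97, adjusted p = 0.00694) and *Hoxa6* (-0.73, adjusted p = 0.0141) were lower as well. Counted by group, 3 of 7 genes of groups 4 and 5 and 4 of 8 genes of groups 6 to 8 were lower. Exceptions came from the HoxD cluster. *Hoxd4* was higher at the lumbar level, at 104, 98.4 and 88.4 TPM against 57.6, 57.5 and 60.6 TPM (log2 difference 0.72, SE 0.09, adjusted p = 0.0119). *Hoxd8* was at 73.3, 85.5 and 74.9 TPM against 51.3, 40.2 and 45.8 TPM (log2 difference 0.77, SE 0.11, adjusted p = 0.0274). These were the only genes of groups 4 to 8 called higher, and both stood above the brachial range in every lumbar library. Without brachial KO 2 both missed the threshold (adjusted p = 0.0647 for *Hoxd4* and 0.0855 for *Hoxd8*), as they did without lumbar KO 2 (0.0748 and 0.118), and *Hoxd8* also without lumbar KO 3 (0.119). *Hoxa6* missed it without brachial KO 2 (0.0702), lumbar KO 2 (0.0909) or lumbar KO 3 (0.0946), and *Hoxc4* without lumbar KO 3 (0.055). None of the 7 tested genes of groups 1 to 3, which pattern the hindbrain and upper cervical cord, passed the test, and their median log2 difference was 0.22. Transcripts of neighbouring *Hox* genes overlap in this annotation (*Hoxd10* with *Hoxd11*, *Hoxd3* with *Hoxd4*), so the split of reads between such neighbours is uncertain. None of the 13 tested cofactors and caudal regulators of *Hox* genes passed the test. *Meis1*, a TALE-class cofactor, was at 124, 120 and 121 TPM in the brachial and 133, 142 and 126 TPM in the lumbar libraries (log2 difference 0.13, adjusted p = 0.318).

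**Figure D1:**
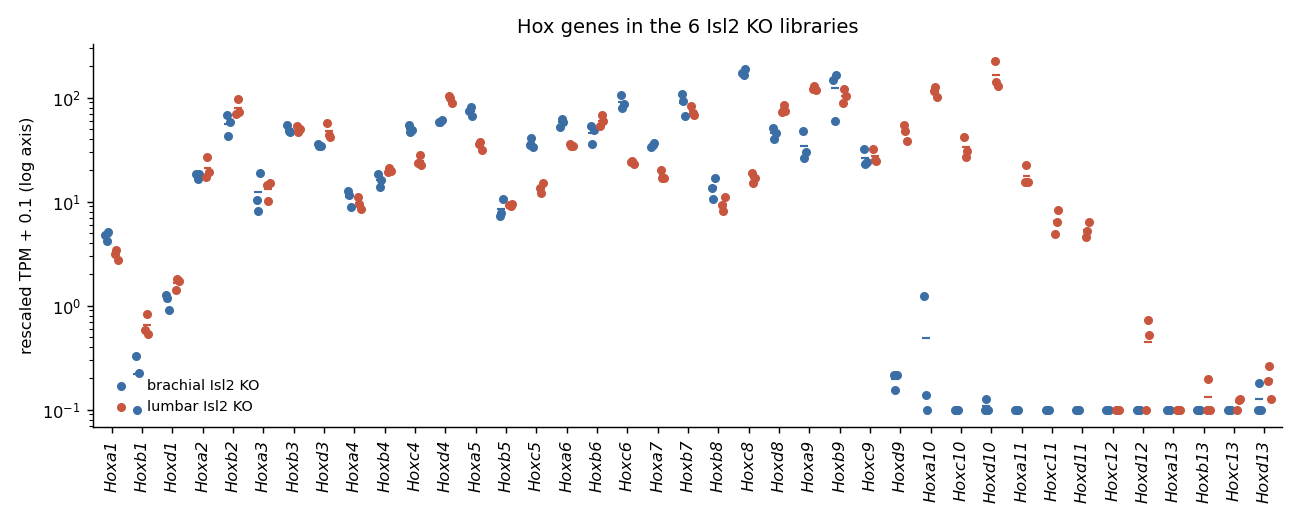
Level of each *Hox* gene in the 6 *Isl2* KO libraries, as rescaled TPM + 0.1 on a log axis, ordered by group, with a point for each library and a bar at the mean of 3. The lumbar points of groups 10 and 11 stand above the brachial points, which lie at or near 0.1 except *Hoxa10* in brachial KO 1 (1.13 TPM), while *Hoxc8* falls from 166 to 188 TPM at the brachial level to 14.9 to 18.9 TPM at the lumbar level.

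Noncoding transcripts of the clusters were found on both sides. *Hoxa11os*, which overlaps *Hoxa11* on the opposite strand, was listed at 0 in the brachial libraries and at 13.5, 18.8 and 13.7 TPM in the lumbar ones (adjusted p = 1.26e-05). *Gm53*, a long noncoding RNA upstream of *Hoxb9* (chr11:96251660-96264484, + strand), was at 0.134, 0.147 and 0 TPM against 57.6, 23.4 and 20.9 TPM (adjusted p = 0.000369), although *Hoxb9* itself did not pass the test. *Mira*, which lies next to *Hoxa7*, was lower in the lumbar cord, at 31.3, 27.0 and 30.1 TPM against 64.7, 58.5 and 65.2 TPM (log2 difference -1.09, SE 0.09, adjusted p = 0.00187). *Hoxa11os* and *Gm53* were thus listed at or near 0 in the brachial libraries and passed the filter through their lumbar values, whereas *Mira* was present at both levels. Of the 9 tested noncoding RNAs on the *Hox* list 2 were higher and 1 lower. *Gm38462*, which overlaps *Hoxd8* on the opposite strand, was chosen after its values were seen, and its log2 difference was 1.57 (SE 0.11, adjusted p = 0.000433). Whether reads were assigned by strand is not given in the sources used here, so reads of such overlapping pairs cannot be told apart.

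The hairpin genes of miR-196a, whose sequence is printed above, were on the lumbar side. *Mir196a-1* was listed at 0 in the brachial libraries and at 5.20, 2.79 and 5.71 TPM in the lumbar libraries (adjusted p = 0.00114). *Mir196a-2* was at 0, 0.0822 and 0 TPM against 9.43, 6.77 and 5.20 TPM (adjusted p = 0.00051). *Mir196b* reached 0.119, 0.48 and 1.24 TPM at the lumbar level and was listed at 0 at the brachial level, but did not pass the filter. Every lumbar library thus held reads of all 3 loci. *Mir196a-1* and *Mir196a-2* passed the filter through their lumbar values, so they could only be called higher. *Mir10a*, in the HoxB cluster, had a log2 difference of 0.62 (adjusted p = 0.257) and *Mir10b* of 0.27 (adjusted p = 0.694), with overlapping values. *Mir615*, within *Hoxc5*, was at 5.31, 4.11 and 4.37 TPM in the brachial and 1.86, 2.28 and 3.69 TPM in the lumbar libraries, without overlap, at a log2 difference of -0.84 that missed the threshold (adjusted p = 0.103).

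Several general MN genes did not pass the test between levels, while *Prph*, *Slc5a7*, *Chodl* and *Olig2* were lower at the lumbar level. *Mnx1*, which encodes Hb9, was at 44.7, 43.7 and 50.4 TPM in the brachial and 57.8, 68.0 and 38.7 TPM in the lumbar KO libraries (log2 difference 0.21, 95% interval -0.23 to 0.64, adjusted p = 0.53). *Isl1* was at 53.1, 48.6 and 52.3 TPM against 46.9, 62.6 and 53.6 TPM (log2 difference 0.07, interval -0.19 to 0.33, adjusted p = 0.733). *Chat*, which encodes choline acetyltransferase, had a log2 difference of 0.06 (interval -0.44 to 0.57, adjusted p = 0.886), and *Slc18a3*, the vesicular acetylcholine transporter that lies within the *Chat* locus, of -0.23 (interval -0.84 to 0.39, adjusted p = 0.634). The libraries overlapped in all 4 genes, and lumbar KO 3 was the lowest library in 3 of them.

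*Prph*, which encodes the intermediate filament peripherin, was the MN gene with the lowest p. It was at 273, 303 and 231 TPM in the brachial and 42.0, 32.1 and 35.5 TPM in the lumbar KO libraries, a log2 difference of -2.88 (SE 0.13, adjusted p = 3.95e-05). *Slc5a7*, the high-affinity choline transporter, was at 27.4, 33.4 and 30.5 TPM against 13.2, 10.9 and 12.8 TPM (log2 difference -1.30, SE 0.12, adjusted p = 0.00269). Both were lower in every lumbar library by a gap far wider than the spread within a level. *Chodl* (log2 difference -0.77, adjusted p = 0.042), a marker of fast MNs, and *Olig2* (-0.91, adjusted p = 0.0474), a factor of MN progenitors, were lower too. Thus 4 of 22 tested MN genes were lower and none higher, against 1.6% and 1.64% of all genes tested. The list's median log2 difference was 0.04, and the count was 2 without brachial KO 2, lumbar KO 1, lumbar KO 2 or lumbar KO 3 and 3 without brachial KO 1. The call of *Olig2* was lost in all 6 such fits and that of *Chodl* in 4.

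Of 22 tested genes of the LMC and of motor pools, the groups of MNs that innervate 1 muscle, 3 were lower and 1 higher. The shares over all genes tested were 1.6% and 1.64%, and the list's median log2 difference was -0.34. *Etv4*, the ETS factor of forelimb and hindlimb pools, was at 23.1, 21.4 and 21.2 TPM in the brachial and 4.92, 6.61 and 5.94 TPM in the lumbar KO libraries (log2 difference -1.90, SE 0.13, adjusted p = 0.000519). *Etv5*, its close relative, was at 6.97, 8.86 and 5.76 TPM against 3.73, 2.21 and 3.62 TPM (log2 difference -1.17, SE 0.25, adjusted p = 0.0484). *Sema3e*, a semaphorin of particular motor pools, was at 2.75, 3.46 and 2.75 TPM against 1.08, 1.26 and 1.11 TPM (log2 difference -1.30, SE 0.22, adjusted p = 0.0371). All 3 separated the levels completely. The call of *Etv4* held whichever KO library was left out, while that of *Etv5* was lost in each such fit (adjusted p = 0.149 without lumbar KO 2) and that of *Sema3e* in all but the fit without brachial KO 1 (0.124 without lumbar KO 2). *Epha3*, an ephrin receptor of axial MNs, was higher in the lumbar cord, at 55.7, 69.0 and 74.6 TPM against 32.9, 27.2 and 35.8 TPM (log2 difference 1.05, SE 0.14, adjusted p = 0.022), but missed the threshold without brachial KO 2 (adjusted p = 0.0627), lumbar KO 2 (0.105) or lumbar KO 3 (0.104). *Foxp1*, the LMC determinant, was at 29.5, 31.4 and 45.1 TPM in the brachial and 26.1, 29.4 and 24.9 TPM in the lumbar KO libraries and did not pass (log2 difference -0.38, interval -0.75 to 0.00, adjusted p = 0.196). *Epha4*, which guides limb motor axons, had a log2 difference of -0.01 (interval -0.21 to 0.20).

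Among the 10 tested genes of median, hypaxial and preganglionic columns, *Mpped2* alone passed the test, and was lower (log2 difference -0.88, adjusted p = 0.04). Among 11 tested genes of retinoic acid signalling, *Rarb*, a retinoic acid receptor, was higher (log2 difference 0.68, adjusted p = 0.0437) and the others did not pass. The calls of *Mpped2* and *Rarb* were each lost in 5 of the 6 fits that left out 1 KO library. *Aldh1a2*, the retinoic acid synthesising enzyme of limb-level MNs and meninges, was at 103, 102 and 122 TPM against 68.5, 94.9 and 58.5 TPM (log2 difference -0.58, adjusted p = 0.0905). Its levels were lower in every lumbar library, without passing the threshold.

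A list of 9 genes was taken from those the study names as lower in the lumbar *Isl2* KO cord, so it was already selected on the genotype difference. The study picked *Prph*, *Anxa2*, *Kcnab1*, *C1ql3* and *A730046J19Rik* on these libraries, so their position in the KO is no independent evidence. *Etv4* had also been examined in other embryos, and *Epha3*, *Fgf10* and *Sema5a* were taken from published single-cell data. For every gene of this list except *Etv4*, the study also reports a reduced in situ hybridization signal in the lumbar *Isl2* KO cord. That staining compared genotypes at the lumbar level and not the lumbar with the brachial cord. Of the 8 tested, *Etv4*, *Prph* and *Anxa2* were lower and *Epha3* higher at the lumbar level in the KO. *Anxa2*, a membrane-binding annexin, was at 105, 115 and 99.7 TPM in the brachial and 58.4, 63.0 and 60.5 TPM in the lumbar libraries (log2 difference -0.81, SE 0.08, adjusted p = 0.00604). *Kcnab1*, a potassium channel subunit, was at 7.55, 8.46 and 10.1 TPM against 8.40, 9.75 and 8.63 TPM (log2 difference 0.04, interval -0.29 to 0.37, adjusted p = 0.885). Its libraries overlapped. *Sema5a* (log2 difference -1.07, adjusted p = 0.0569), *A730046J19Rik* (-0.74, adjusted p = 0.0889) and *C1ql3* (-0.32, adjusted p = 0.173) had lower values in the lumbar KO cord and missed the threshold. *Fgf10* did not pass the filter.

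Neuropeptide genes held some of the largest differences outside the *Hox* clusters. *Grp*, gastrin-releasing peptide, was at 13.2, 12.02 and 7.95 TPM in the brachial and 0.646, 0.229 and 0.709 TPM in the lumbar KO libraries (log2 difference -4.22, SE 0.38, adjusted p = 0.00254). *Cartpt*, the precursor of the CART peptides, went the opposite way, from 26.6, 24.1 and 21.1 TPM to 115, 113 and 77.0 TPM (log2 difference 2.07, SE 0.17, adjusted p = 0.00129). *Penk*, the enkephalin precursor, was at 5.89, 8.04 and 4.76 TPM against 2.45, 1.22 and 1.85 TPM (log2 difference -1.73, adjusted p = 0.0367). These were the 3 of 20 tested peptide genes past the threshold, and their levels did not overlap. The call of *Penk* was lost in 3 of the 6 fits that left out 1 KO library, and those of *Grp* and *Cartpt* in none. *Sst*, the precursor of somatostatin, was at 100 to 122 TPM in the brachial and 94.7 to 142 TPM in the lumbar libraries (log2 difference 0.13, interval -0.23 to 0.49).

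**Figure D2:**
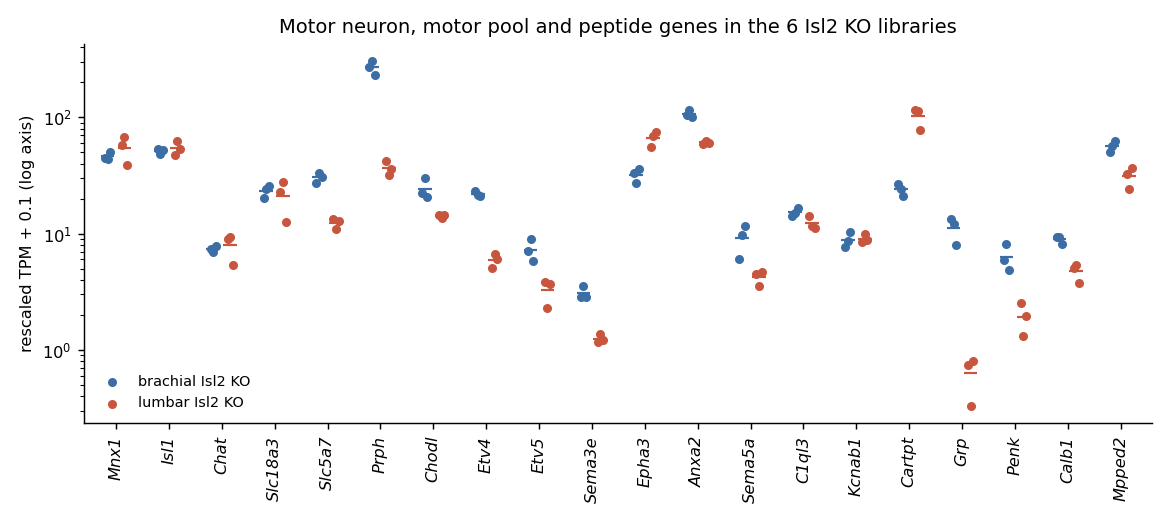
Motor neuron, motor pool and peptide genes in the 6 *Isl2* KO libraries, as rescaled TPM + 0.1 on a log axis, with a point for each library and a bar at the mean of 3. *Mnx1*, *Isl1* and *Chat* overlap between levels, *Prph* falls from 231 to 303 TPM to 32.1 to 42.0 TPM, and *Cartpt* rises from 21.1 to 26.6 TPM to 77.0 to 115 TPM.

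The 10 protein-coding genes outside the *Hox* clusters with the largest lower levels at lumbar, among those reaching 5 TPM, held *Grp*, *Prph*, *Etv4* and 7 others. *Arhgap36*, a protein kinase A inhibitor, was at 17.7, 30.5 and 34.2 TPM in the brachial and 2.304, 4.69 and 1.48 TPM in the lumbar libraries (log2 difference -3.33, SE 0.40, adjusted p = 0.0127). *Crhbp*, a binding protein of corticotropin-releasing hormone, differed by -2.29 (adjusted p = 0.0385) and *Crhr1*, a receptor of that hormone, by -1.81 (adjusted p = 0.044). *Pla2g7* (-2.09, adjusted p = 0.0371), a lipid mediator hydrolase, *Aldoc* (-1.84, adjusted p = 0.0475), the brain aldolase, *Slc6a11* (-1.84, adjusted p = 0.0425), a GABA transporter, and *Iqschfp* (-1.89, adjusted p = 0.0383) completed the set. *Aldoc*, *Pla2g7*, *Slc6a11* and *Iqschfp* were each highest in brachial KO 2. The calls of these 7 genes were lost in 1 (*Arhgap36*) to 5 (*Aldoc*, *Crhr1*) of the 6 fits that left out 1 KO library.

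In the lumbar direction the corresponding set held *Cartpt*, the uncharacterised locus *LOC115488130*, *Cnpy1* (log2 difference 1.93, adjusted p = 0.0412), *Ccdc182* (1.52, adjusted p = 0.04), *Cabp7* (1.497, adjusted p = 0.0127), a calcium-binding protein, *Stra6l* (1.48, adjusted p = 0.0083), a retinol-binding protein receptor, and *Ppp1r14a* (1.31, adjusted p = 0.0152), an inhibitor of protein phosphatase 1. It also held the histone genes *H2bc6* (1.38, adjusted p = 0.0478) and *H2bc12* (1.34, adjusted p = 0.0355) and the replication licensing factor *Cdc6* (1.30, adjusted p = 0.0474). *LOC115488130* was listed at 0 in the brachial and at 5.35, 4.03 and 6.20 TPM in the lumbar KO libraries (adjusted p = 0.000369). It passed the filter through its lumbar values. Apart from *Cartpt* and *LOC115488130*, the calls of this set were lost in 1 (*Cabp7*) to 5 (*Ccdc182*, *Cdc6*) of the 6 fits.

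Cell cycle genes lay on the lumbar side. All 25 had positive log2 differences, 24 did not overlap between levels, and 17 were higher at an adjusted p under 0.05, with a median log2 difference of 0.96. Over all genes tested, 16.2% had every lumbar above every brachial value and 1.64% were called higher. The summed level of the cell cycle list was 727, 497 and 684 TPM in the brachial and 977, 1210.2 and 1309.3 TPM in the lumbar KO libraries. *Top2a*, the topoisomerase of dividing cells, was at 80.0, 47.3 and 73.5 TPM against 124, 155 and 169 TPM (log2 difference 1.18, SE 0.20, adjusted p = 0.0371). *Ccnb1*, the mitotic cyclin B1, was at 43.2, 24.3 and 38.1 TPM against 62.6, 75.7 and 88.8 TPM (log2 difference 1.13, SE 0.22, adjusted p = 0.0432). *Ccne2*, a cyclin of the G1/S transition, was at 6.30, 4.91 and 5.54 TPM against 10.1, 11.6 and 11.6 TPM (log2 difference 0.99, SE 0.14, adjusted p = 0.0252). In each of these, brachial KO 2 was the lowest library and every lumbar value lay above every brachial value. The replicative helicase subunits *Mcm5* (log2 difference 1.02, adjusted p = 0.0355), *Mcm3* (1.10, adjusted p = 0.0389) and *Mcm7* (0.63, adjusted p = 0.0378) and the mitotic kinesin *Kif11* (1.01, adjusted p = 0.0425) were higher too. *Mki67* was at 21.0, 16.6 and 29.4 TPM against 31.9, 31.4 and 46.5 TPM and missed the threshold (log2 difference 0.72, adjusted p = 0.103).

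The calls of cell cycle genes lay close to the threshold and rested on single libraries. No cell cycle gene passed without brachial KO 2, without lumbar KO 2 or without lumbar KO 3, 4 passed without brachial KO 3, 7 without lumbar KO 1 and 19 without brachial KO 1. Replication histone genes, a set chosen after their values were seen and made up of near-identical copies among which reads are hard to assign, moved along with them. Of 64 tested, 49 were higher and none lower, all 64 had positive differences, and the median log2 difference was 1.02. Their summed level was 21775, 13918 and 17993 TPM in the brachial and 29583, 36936 and 38118 TPM in the lumbar KO libraries, and leaving out 1 library gave 0 to 58 calls. The genes called higher spanned a median of 8.61 kb of genome and those called lower 48.9 kb, against 19.3 kb over all genes tested, and 13 small nucleolar RNAs, of 301 tested, were among the former and none among the latter. They made up 5.24% of the genes called higher and 1.99% of the genes tested. The share in TPM of the small structural RNAs named above, which include no small nucleolar RNA, was lowest in brachial KO 2 and highest in lumbar KO 3. The part of transcript length, small structural RNA share and brachial KO 2 in these differences was not tested.

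Promoters of 3 of these cell cycle genes that moved together, and that of *Hoxd10* as the *Hox* gene with the smallest p, are shown as RefSeq windows of 300 bases on GRCm38.p6, 250 before and 50 after the start, 5′ to 3′ on the gene's strand. Capitals mark the CCAAT box (CCAAT), the cell cycle homology region (TTTGAA or TTCGAA) and the E2F motif (TTCCCGCC), each on either strand.
Top2a, chr11:99024140-99024439 (-): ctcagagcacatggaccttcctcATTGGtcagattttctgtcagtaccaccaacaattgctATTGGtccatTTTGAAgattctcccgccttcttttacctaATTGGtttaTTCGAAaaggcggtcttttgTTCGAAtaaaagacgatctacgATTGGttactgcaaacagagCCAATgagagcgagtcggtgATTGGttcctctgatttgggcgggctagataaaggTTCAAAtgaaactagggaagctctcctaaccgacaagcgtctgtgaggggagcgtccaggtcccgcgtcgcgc
Ccnb1, chr13:100786437-100786736 (-): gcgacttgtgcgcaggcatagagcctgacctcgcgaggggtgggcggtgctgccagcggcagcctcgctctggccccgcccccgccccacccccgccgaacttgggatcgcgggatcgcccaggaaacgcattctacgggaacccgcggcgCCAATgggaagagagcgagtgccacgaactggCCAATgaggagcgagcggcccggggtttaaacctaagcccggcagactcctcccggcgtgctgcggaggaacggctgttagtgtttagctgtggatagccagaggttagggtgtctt
Mcm3, chr1:20820263-20820562 (-): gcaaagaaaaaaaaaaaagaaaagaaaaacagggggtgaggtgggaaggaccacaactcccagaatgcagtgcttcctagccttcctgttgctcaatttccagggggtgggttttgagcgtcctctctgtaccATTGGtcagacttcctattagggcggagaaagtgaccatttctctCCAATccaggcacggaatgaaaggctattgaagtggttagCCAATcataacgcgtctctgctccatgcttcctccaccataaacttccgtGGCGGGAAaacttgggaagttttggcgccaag
Hoxd10, chr2:74691641-74691940 (+): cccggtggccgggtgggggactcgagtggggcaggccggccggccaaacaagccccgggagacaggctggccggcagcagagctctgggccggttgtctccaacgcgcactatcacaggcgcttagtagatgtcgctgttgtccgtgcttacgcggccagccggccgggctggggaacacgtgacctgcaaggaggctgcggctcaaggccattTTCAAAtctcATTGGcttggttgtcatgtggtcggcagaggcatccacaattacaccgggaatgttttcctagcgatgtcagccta
The *Top2a* window held 10 such matches, *Mcm3* 4, *Ccnb1* 2 and *Hoxd10* 2. A CCAAT box was in 19 of the 21 cell cycle genes with a promoter in the table and in all 14 of those called higher, against 39.6% of the 10732 tested genes with a promoter. A CCAAT box together with a cell cycle homology region was in 12 of the 21, against 6.04% of tested genes, and the E2F motif was in 1 of the 21, against 4.21%. These are matches of letters and describe the promoters, not what is bound there.

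Genes of differentiated neurons leaned to the brachial side. Of 20 pan-neuronal genes, 18 had negative log2 differences, with a median of -0.38, and, against 1.6% of all genes tested, 5 were lower. These were the synaptic vesicle gene *Syp* (log2 difference -0.80, adjusted p = 0.0274), the neurofilament genes *Nefh* (-1.02, adjusted p = 0.0444) and *Nefm* (-0.66, adjusted p = 0.0474), and the release machinery genes *Syt1* (-0.53, adjusted p = 0.0474) and *Snap25* (-0.45, adjusted p = 0.0475). *Syp* was at 61.9, 71.3 and 59.2 TPM in the brachial and 42.2, 34.2 and 34.4 TPM in the lumbar libraries, without overlap. No pan-neuronal gene passed without brachial KO 2, lumbar KO 2 or lumbar KO 3. Among 18 progenitor and ventral domain genes *Hes5*, a Notch effector, was higher (log2 difference 0.70, adjusted p = 0.0385) and *Olig2* lower, with a median of 0.20. Of 16 ventral interneuron genes *Calb1*, a marker of Renshaw cells, was lower (log2 difference -0.93, adjusted p = 0.0394), and none of 19 dorsal interneuron genes and none of 9 floor plate genes passed. The calls of *Hes5* and *Calb1* were each lost in 5 of the 6 fits.

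Of 42 axon guidance genes 4 were lower and 1, *Epha3*, higher, against 1.6% and 1.64% of all genes tested. The list's median log2 difference was -0.16. The 4 were the semaphorins *Sema3a* (log2 difference -0.80, adjusted p = 0.0363), *Sema3d* (-1.12, adjusted p = 0.0478) and *Sema3e* and the semaphorin receptor *Nrp2* (-0.62, adjusted p = 0.0474). *Sema3a* was at 29.4, 39.4 and 36.7 TPM in the brachial and 22.4, 18.1 and 19.6 TPM in the lumbar libraries, without overlap. On leaving out 1 KO library the call of *Sema3d* was lost in all 6 fits, that of *Nrp2* in 5 and that of *Sema3a* in 4. All 11 type II cadherins, adhesion molecules with different combinations in different motor pools, had negative log2 differences, with a median of -0.44, but only *Cdh10* passed (-0.75, adjusted p = 0.0473), a call lost in 5 of the 6 fits. *Cdh12* (-1.09, adjusted p = 0.0535), *Cdh7* (-0.81, adjusted p = 0.0539) and *Cdh18* (-1.04, adjusted p = 0.0763) were next. None of 18 growth factor and receptor genes of motor axons passed.

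Markers of other cells in the dissected tissue were examined for the same contrast. Of 15 endothelial and pericyte genes *Pdgfrb* was lower (log2 difference -0.96, adjusted p = 0.0472), with 13 of 15 differences negative and a median of -0.31. Of 11 oligodendrocyte and astrocyte lineage genes *Aldh1l1* (-1.34, adjusted p = 0.0478) and *Olig2* were lower, and all 11 differences were negative with a median of -0.66. None of 10 microglia and macrophage genes passed, although 9 of 10 differences were negative with a median of -0.81. The summed level of that list was 37.6, 54.3 and 35.2 TPM in the brachial and 24.3, 25.2 and 34.5 TPM in the lumbar libraries. The calls of *Pdgfrb* and *Aldh1l1* were each lost in 5 of the 6 fits. In all 3 lists the summed level was highest in brachial KO 2. The summed level of *Csf1r*, *Cx3cr1* and *C1qa* was 10.1 to 19.1 TPM in the brachial and 4.95 to 9.79 TPM in the lumbar libraries.

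No gene passed among 12 erythroid, 8 mesenchyme and cartilage, 2 skeletal muscle, 5 sensory ganglion, 6 Schwann cell and neural crest and 9 early response genes that were tested. In the mesenchyme and cartilage list 7 of 8 differences were negative, with a median log2 difference of -0.35, and the summed level of 6 defining markers was 110.4 to 110.8 TPM in the brachial and 79.7 to 107 TPM in the lumbar libraries, without overlap. That sum was mostly *Dcn* (39.1 to 66.2 TPM) and *Col2a1* (34.8 to 49.4 TPM), each overlapping between levels. *Col1a1*, *Prrx1* and *Twist1* were under 1 TPM in all 6 libraries. The part of mesenchyme and cartilage cells, and of the vascular, glial and microglial cells, in the other differences was not tested. The muscle markers *Myod1*, *Myog* and *Actc1* summed to at most 0.510 TPM, with *Myod1* listed at 0 in all 6 KO libraries, and the limb mesenchyme markers *Tbx5*, *Tbx4* and *Pitx1* to at most 0.284 TPM. The sensory ganglion markers summed to 0.839 to 1.86 TPM. The 6 defining MN markers, *Mnx1*, *Isl1*, *Chat*, *Slc18a3*, *Slc5a7* and *Prph*, were present in all 6 libraries. They summed to 398 to 460 TPM in the brachial and 158 to 210 TPM in the lumbar libraries, without overlap. *Prph* was the largest part of that sum in every brachial library.

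**Figure D3:**
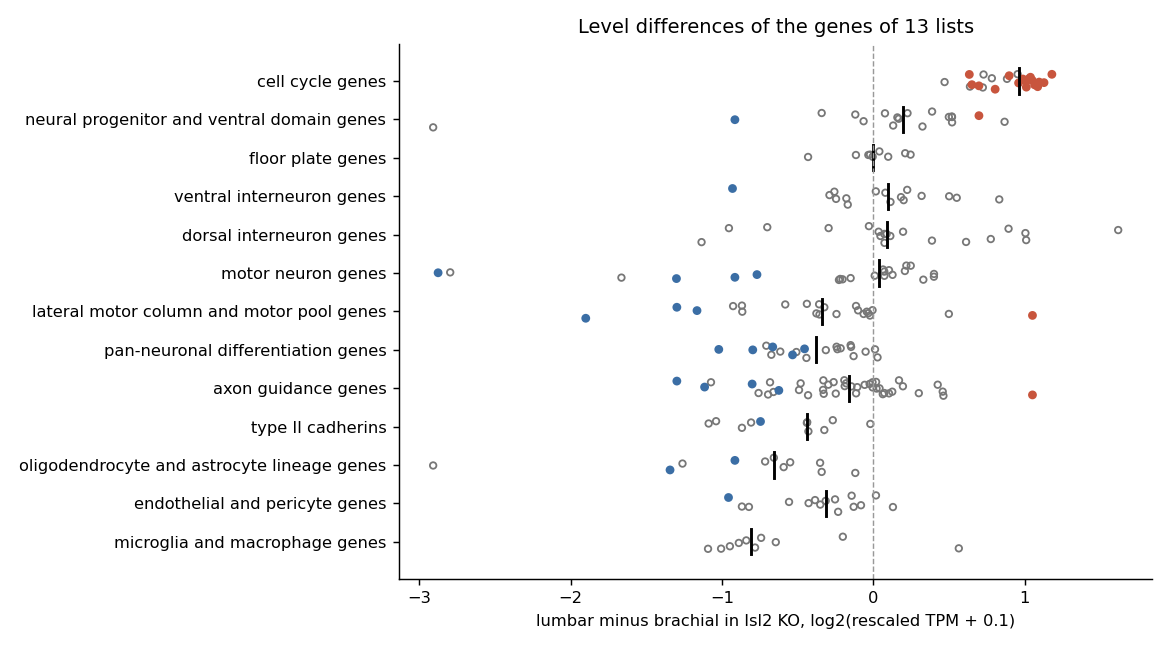
Difference between the lumbar and brachial *Isl2* KO cord (log2, horizontal axis) for each tested gene of 13 lists, with red and blue points for genes higher and lower at an adjusted p under 0.05, open points for the others and a black bar at each list's median. The cell cycle genes lie to the right of 0, with a median of 0.96 and 17 of 25 past the threshold, and the type II cadherins lie to the left.

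To see which level differences stand in both genotypes, the same comparison was made in the Het libraries, which share no library with the KO. On the common scale *Xist* was at 18.0 TPM in brachial Het 3, 32.6 TPM in lumbar Het 1 and 28.5 TPM in lumbar Het 3. It was at or under 0.325 TPM in the remaining Het libraries. The sexes were thus uneven between the Het levels, and their part in the Het differences was not tested. Of 14807 genes tested in the Het cord, 174 were higher at the lumbar level (1.18%) and 351 lower (2.37%). Over the 14666 genes tested in both genotypes, 487 passed in the KO and 519 in the Het, and 182 passed in both in the same direction, 49 higher and 133 lower. The shared genes made up 37.4% of the KO list and 35.1% of the Het list, and no gene passed in opposite directions. Leaving out 1 library gave 33 to 206 shared genes, so this count and its shares rest on single libraries. Of the 519 Het genes, 512 had the same sign in the KO (98.7%), against 69.6% of all genes tested in both. The Het genes that were lower at the lumbar level had a median log2 difference of -0.68 in the Het and -0.70 in the KO cord, and those that were higher 0.71 and 0.69. Of the 346 Het genes that were lower, 133 were also called in the KO (38.4%), and of the 173 that were higher, 49 (28.3%).

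Genes called in the KO, which were chosen on their KO values, had larger medians in the KO. Those higher in the lumbar KO cord had a median log2 difference of 0.98 in the KO and 0.54 in the Het, and those that were lower -0.90 and -0.63. Of the 487, 483 had the same sign in the Het. The cell cycle list had 6 of 25 genes higher in the Het, with a median log2 difference of 0.66 and all 25 positive, from summed levels of 671, 489 and 624 TPM in the brachial and 735, 917 and 961 TPM in the lumbar Het libraries. Replication histones had 0 of 64 higher in the Het, with a median of 0.53. Pan-neuronal genes had 2 of 20 lower in the Het with a median of -0.06.

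The difference between genotypes was tested directly as an interaction over all 12 libraries. No gene of 14946 passed at an adjusted p under 0.05 (smallest adjusted p = 0.638, limma), and 673 had an unadjusted p under 0.05 (4.5%). Among the 487 genes called in the KO, 77 had an unadjusted interaction p under 0.05, and among the 182 shared genes 16. These genes were chosen on their KO difference, which is part of the interaction, so the counts are not to be read against the 4.5%.

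*Hox* genes expressed at both levels are given first. *Hoxc8* differed between levels by -3.28 on the log2 scale in the Het (adjusted p = 5.93e-06), and the KO difference minus the Het difference was -0.09 (95% interval -0.44 to 0.26). For *Hoxc6* the Het difference was -1.94 and the interaction 0.02 (-0.46 to 0.50). *Hoxa9* gave 1.95 and -0.07 (-0.64 to 0.50), and *Hoxd4* 0.69 and 0.03 (-0.20 to 0.27). The Het libraries carry 1 null allele, so the interaction compares the KO with Het and not with wild type. The genes listed at or near 0 in the brachial cord are compared by their lumbar levels, scaled separately in each genotype. *Hoxd10* was at 172, 138 and 186 TPM in the lumbar Het libraries and *Hoxa11* at 19.5, 19.4 and 20.2 TPM, both overlapping the KO values. *Hoxc11* was at 9.30, 8.72 and 13.1 TPM, above all 3 lumbar KO values of 4.81 to 8.12 TPM (interaction unadjusted p = 0.0654), and *Hoxd11* at 7.05, 6.79 and 6.93 TPM, above the 4.43 to 6.28 TPM of the KO (unadjusted p = 0.718). Neither interaction passed the threshold. An interaction also uses brachial values near the pseudocount of 0.1 TPM, so these p-values do not test the lumbar difference alone. That difference was not tested. In groups 9 to 13 the Het also had 8 genes higher and none lower, with the limit of the filter given above. In groups 6 to 8 the Het had 4 lower and 1 higher. In groups 4 and 5 it had 4 lower and 1 higher, against 3 and 1 in the KO, the added gene being *Hoxa4* (log2 difference -0.63 in the Het and -0.19 in the KO, interaction 0.45, interval -0.03 to 0.92). In groups 1 to 3 it had 1 higher against none in the KO, *Hoxd3* (0.59 and 0.44, interaction -0.15, interval -0.54 to 0.23). *Hoxc5*, lower in both genotypes, had a Het difference of -1.88 and an interaction of 0.46 (0.05 to 0.86, unadjusted p = 0.0301), and *Hoxb4*, called in neither, an interaction of 0.40 (0.01 to 0.80, unadjusted p = 0.0471).

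In the MN and pool lists signs were counted in each genotype, and no difference between genotypes was tested over a list. Of 22 LMC and motor pool genes, 2 had positive level differences in the KO and 9 in the Het, and of 22 MN genes 12 and 14. *Etv4* differed by -1.29 in the Het (adjusted p = 0.0139) and -1.90 in the KO, an interaction of -0.61 (-1.14 to -0.07, unadjusted p = 0.0298). *Prph* differed by -2.36 in the Het, an interaction of -0.52 (-1.05 to 0.01, unadjusted p = 0.0545), and *Slc5a7* by -0.89, an interaction of -0.41 (-0.75 to -0.07, unadjusted p = 0.0217). *Sema3e* differed by -0.45 in the Het without passing (adjusted p = 0.197), an interaction of -0.85 (-1.39 to -0.32, unadjusted p = 0.00471). *Anxa2* gave -0.52 and -0.30 (-0.50 to -0.10, unadjusted p = 0.00705). *Grp* gave -3.39 and -0.83 (-1.85 to 0.20), and *Cartpt* 1.66 and 0.41 (-0.02 to 0.83). None of these interactions passed adjustment over all genes.

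*Kcnab1* was the gene with the smallest interaction p. It was higher in the lumbar Het cord (log2 difference 1.16, adjusted p = 0.00416) and not in the KO, an interaction of -1.12 (-1.54 to -0.71, unadjusted p = 7.58e-05, adjusted p = 0.638). Of the 8 tested genes on the list taken from the study, which had been selected as lower in the lumbar KO cord, 5 had an unadjusted interaction p under 0.05, *Kcnab1*, *C1ql3*, *Anxa2*, *A730046J19Rik* and *Etv4*. The study picked all but *Etv4* on these libraries, so this count is no independent evidence. *Akr1e1*, an aldo-keto reductase, had the smallest p in the opposite direction, an interaction of 0.85 (unadjusted p = 8.54e-05, adjusted p = 0.638).

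Stability to single libraries narrowed the list. Of the 489 genes called in the KO, 28 passed in each of the 6 fits that left out 1 KO library, 15 higher and 13 lower, and 27 of these also passed in the Het. Of the 28, 18 were genes of the *Hox* clusters, and 25 also passed in every fit of the Het libraries that left out 1 of them. Several of the 18 were at or near 0 in the brachial libraries and passed the filter through their lumbar values, so they could only be called higher. The 10 others, named after their values were seen except where the naming rule held them, were *Grp*, *Prph*, *Etv4*, *Pcp4*, *Lypd1*, *Slc5a7* and *Anxa2* on the brachial side and *Cartpt*, *Gm38462* and *LOC115488130* on the lumbar side. Each other call was lost in at least 1 of these fits. *Gm38462* is counted here outside the clusters by its name, although it overlaps *Hoxd8*. *Pcp4*, a regulator of calmodulin, was at 34.3, 39.8 and 23.3 TPM in the brachial and 9.27, 9.36 and 9.01 TPM in the lumbar libraries (log2 difference -1.77, SE 0.18, adjusted p = 0.00604, Het -1.52). *Lypd1*, a modulator of nicotinic receptors, was at 26.4, 32.9 and 27.8 TPM against 11.1, 8.07 and 9.45 TPM (log2 difference -1.60, SE 0.14, adjusted p = 0.00269, Het -1.62). Both separated the levels completely in the KO. The exception in the Het was *LOC115488130* (adjusted p = 0.46).

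**Figure D4:**
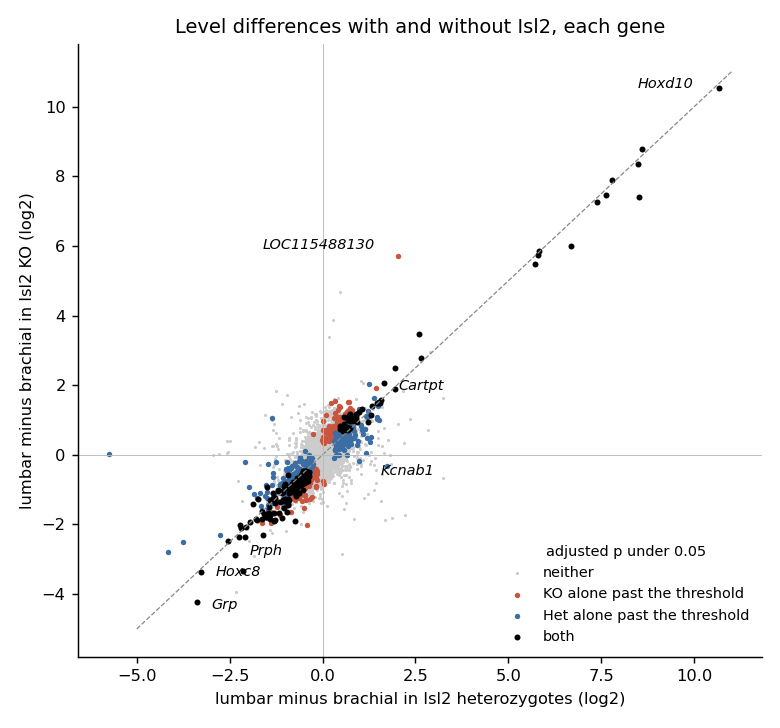
Lumbar minus brachial difference of each gene tested in both genotypes, in *Isl2* heterozygotes (horizontal axis, log2) and in *Isl2* KO (vertical axis, log2), with 182 genes past the threshold in both in black, genes past it in 1 genotype in red or blue and a dashed line of equality. *Hoxd10* and *Hoxc8* lie near the line. *Grp* (-4.22 in the KO and -3.39 in the Het), *Prph* (-2.88 and -2.36) and *Cartpt* (2.07 and 1.66) lie somewhat off it. *LOC115488130* (5.71 and 2.02) lies far above it, and *Kcnab1* lies near 0 in the KO.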

How the data were processed

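Ventral spinal cord of E12.5 embryos was profiled by stranded total RNA sequencing after ribosomal RNA depletion. Per the labels and the study's methods, the authors used FastQC 0.11.7, Trimmomatic 0.38, HISAT2 2.1.0, Bowtie2 2.3.4.1 and StringTie 2.1.3b on mm10, and deposited for each library a gene table of coverage, FPKM and TPM, with no counts, so a count model could not be run. The authors' deposited coverage and FPKM were used only to back-calculate depth. A constant ratio between them held within 1% for 91.4 to 92.2% of single-transcript genes. The 12 tables named 45777 genes, 45679 of them with a symbol.

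For the 6 KO libraries, deposited TPM was divided by size factors (median of ratios), from 0.879 to 1.20, and likewise and separately for the 6 Het libraries. Genes with a mean of 1 TPM or more were tested with limma 3.58.1 (R 4.3.3, eBayes with trend) on log2(TPM + 0.1), a scale that understates the change of low genes, with Benjamini-Hochberg adjusted p under 0.05 as the threshold. The interaction used all 12 libraries on 1 scale. With 3 libraries against 3, an exact permutation test of a single value cannot go below p = 0.1 two-sided. Steps were tested on simulated data with known changes. Gene lists and members were chosen with earlier results of these data known. Named genes were *Isl2*, the *Hox* genes, the genes of smallest p from each list, the genes the study names, in each direction the 10 protein-coding genes outside the *Hox* clusters with the largest difference among called genes reaching 5 TPM, and the 5 of smallest p in each direction of the interaction. Genes named after their values were seen are marked as such. Alternatives covered the pseudocount, filter, scaling, FPKM, protein-coding genes alone, the trend, the replicate number, a joint fit and leaving out each library.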

Additional observations from a re-analysis of the deposited data

How the results depend on the processing

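The numbers of genes called depended on the processing. In place of 248 higher and 241 lower genes, there were 22 and 23 with no filter on low values, 164 and 409 on the values as deposited, 495 and 479 with protein-coding genes alone, 36 and 52 without the trend, and 1001 and 1026 in a fit of all 12 libraries. On the values as deposited the median log2 difference of all genes was -0.21, against 0.01 after rescaling, and single differences there are relative to it. Genes called in both genotypes numbered 35, 366 and 61 with no filter, with protein-coding genes and without the trend, in place of 182. Pseudocounts of 0.01 and 1, a filter at 5 TPM, quantile normalization and FPKM kept these 3 counts within 1.5 times. Leaving out 1 library gave 16 to 599 genes higher, 16 to 337 lower, 33 to 206 in both genotypes and 0 to 1 for the interaction, with 33 in both without lumbar KO 3, 35 without brachial KO 2 or lumbar KO 2, 86 without lumbar KO 1, and 59 to 121 without brachial Het 1, 2 or 3 or lumbar Het 2 or 3. Cell cycle genes numbered 0 with no filter, 1 without the trend and 11 after quantile normalization, in place of 17. Replication histone genes higher numbered 0 with no filter, 0 without the trend and 1 with the replicate number as a block, in place of 49. In each of these settings pan-neuronal genes lower numbered 0, in place of 5, and MN genes lower 2, in place of 4.

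With the replicate number as a block, 28 genes were higher, 21 lower, 44 called in both genotypes, 1 for the interaction and 0 cell cycle genes higher. The numbers do not pair the KO libraries, since deviations of same-numbered libraries correlated at 0.00782, -0.26 and 0.0854, and *Xist* differed between the levels in numbers 2 and 3. The 1 interaction was *Mir5136* with the block and *Mir7661* with no filter, and *LOC115488130*, *LOC115487798* and *Gm42186* without brachial Het 3, brachial KO 1 and brachial KO 2, all named after their values were seen.

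Over the named genes past the threshold, 676 of 816 settings other than leaving out a library kept the call and 140 lost it, and 261 of 456 that left out a library kept it. No called gene changed sign. Genes that missed the threshold did so. On the values as deposited the log2 difference was -0.15 for *Isl1*, -0.015 for *Mnx1*, -0.16 for *Chat*, -0.17 for *Hoxc9*, -0.18 for *Kcnab1* and -0.22 for *Fer*. Leaving out 1 KO library gave -0.030 to 0.18 for *Isl1*, -0.076 to 0.33 for *Chat*, -0.46 to 0.11 for *Slc18a3*, -0.59 to 0.15 for *Hoxb9*, -0.068 to 0.20 for *Hoxc9*, -0.0901 to 0.58 for *Mir10b*, -0.053 to 0.16 for *Kcnab1* and -0.035 to 0.025 for *Fer*. *Hoxb9* was positive without brachial KO 1 or 3. The cause was not tested.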

Other observations

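The remaining genes of smallest interaction p were outside the gene lists. The KO level difference minus the Het level difference was -0.97 for *Gm24618*, -0.50 for *Trio*, -0.53 for *Tex261* and -0.37 for *Fer*, and 0.48 for *Gt(ROSA)26Sor*, 1.21 for *Mt1*, 0.83 for *Gm22574* and 0.90 for *Rps19-ps3*, all on the log2 scale. *Trio* encodes a guanine nucleotide exchange factor of axon growth, *Fer* a cytoplasmic tyrosine kinase and *Mt1* a metallothionein. None passed adjustment over all genes, at adjusted p from 0.638 to 0.789 (limma).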
